A study of Mus musculus with 9 samples.

Results

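The 33 genes described here encode glutamate receptor subunits, vesicular glutamate transporters, postsynaptic scaffold proteins and the alpha and beta subunits of the kinase CaMKII. They are the rows of the deposited count table whose gene name is on a list of these families. All 33 were found among the 54532 genes of the table, and all 33 were among the 17546 genes that passed the filter on low counts. RNA was sequenced from the hypothalamus of male wild-type ICR mice, an outbred strain, at postnatal day 21, with 3 libraries in each of 3 groups. HA pups were raised by dams fed high fat with high sucrose (HFHS, fat at 45% of energy) and were given 4-PBA, a chemical chaperone, by injection every day from postnatal day 4 to 16. HP pups had HFHS dams and received PBS, the vehicle, over the same days. LP pups had dams on a low-fat diet (LFD, 10% of energy as fat) and also received PBS. The diets began when the dams were 5 weeks old, ran for 5 weeks up to mating and went on through gestation and lactation, with litters set to 10 pups. HP against LP therefore asks about the maternal diet, and HA against HP about the injected compound within that diet. The 9 libraries of the series include no pups of LFD dams given 4-PBA, so the compound cannot be read apart from the HFHS diet. Whether the 3 pups of each group had different litters is not stated, so a p-value measures only the spread between these libraries. The sample titles carry a code that differs between the diets and whose meaning is not stated. Against LP, that code and the maternal diet cannot be told apart. The code also repeats: LP replicates 2 and 3 share Lg63, replicates 1 and 2 of both HP and HA share Hg43, and replicate 3 of HP and of HA share Hg13. Libraries with the same code may therefore not be independent.

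Glutamate is the main fast excitatory transmitter of the brain. Vesicular transporters load it into synaptic vesicles. AMPA, kainate and NMDA receptors are channels that it opens, and metabotropic receptors signal through G proteins. Postsynaptic scaffolds such as PSD-95, the Shank proteins and the Homer proteins hold these receptors at the synapse, and CaMKII is the calcium-activated kinase that phosphorylates several of them. In the hypothalamus, most glutamatergic neurons load vesicles with VGLUT2, the product of Slc17a6, whereas VGLUT1, the product of Slc17a7, is the main form in cortex and hippocampus.

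The libraries held 18226924 to 21823961 counted reads. Hypothalamic genes were detected throughout, with Avp, the vasopressin precursor, at 384.7 to 725.7 CPM, a read count scaled to library size, and the regional transcription factors Otp at 40.8 to 60.1 CPM and Nkx2-1 at 35.0 to 46.4 CPM. Of 20 hypothalamic markers, Kiss1 was at 0 in all 9 libraries. The cortical transcription factor Emx1 stayed between 0 and 0.267 CPM. Libraries differed in markers of neighbouring tissue. The summed level of 17 striatal markers, all detected, was 535 to 547.6 CPM in HA, 541.8 to 545.6 CPM in HP and 566 to 887 CPM in LP. Its highest values were 887 CPM (LP replicate 2) and 731 CPM (LP replicate 1), and the striatal gene Ppp1r1b reached 82.0 and 52.4 CPM there while staying between 8.35 and 16.1 CPM elsewhere. The summed level of 12 meningeal markers was 1273 CPM in HA replicate 3 and 622 CPM in LP replicate 3, and 92.8 to 182.9 CPM elsewhere. That of 10 myelin markers ran from 12130 CPM in HA replicate 3 to 21370 CPM in LP replicate 2. Some hypothalamic markers also varied widely, with Hcrt at 51.4 to 152.6 CPM and Lhx6 at 3.69 to 24.1 CPM. Because these are bulk samples, fewer cells of a type and less RNA per cell cannot be told apart for any gene.

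Of the 3 vesicular transporters, Slc17a6 took up nearly all of the expression. In deposited FPKM, a level divided by the deposited gene length, Slc17a6 had 77.4, 83.1 and 66.9 in HA, 62.5, 76.2 and 71.95 in HP and 70.3, 70.8 and 82.6 in LP. The groups overlapped, and the gene was the highest of the 33 with a mean of 73.5 ± 6.91 FPKM over the 9 libraries (SD). Slc17a7 had 0.221, 0.258 and 0.245 FPKM in HA, 0.154, 0.163 and 0.232 FPKM in HP and 0.198, 0.411 and 0.279 FPKM in LP, which rested on 15 to 47 counts per library. Slc17a8, the gene of VGLUT3, had 1.09, 0.939 and 1.26 FPKM in HA, 1.12, 1.21 and 1.10 FPKM in HP and 0.844, 0.719 and 1.02 FPKM in LP. Every HP value of Slc17a8 lay above every LP value, while HA overlapped both. Slc17a6 made up 98.3% ± 0.256 of the summed FPKM of the 3 genes, Slc17a8 1.39% ± 0.289 and Slc17a7 0.322% ± 0.104 (SD over 9 libraries). The ratio of Slc17a6 to Slc17a7 was lowest at 172 in LP replicate 2, had a median of 323 and reached 468 in HP replicate 2.

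The start-site windows of these 3 genes are shown because their levels differ more than those of any other family described here. Each runs from 250 bases before to 50 bases after the RefSeq transcript start that lies furthest upstream, on build GRCm38.p6, 5′ to 3′ on the gene's own strand. Slc17a6 and Slc17a7 lie on the plus strand and Slc17a8 on the minus strand. Capitals mark CG dinucleotides.
Slc17a6, chr7:51621580-51621879: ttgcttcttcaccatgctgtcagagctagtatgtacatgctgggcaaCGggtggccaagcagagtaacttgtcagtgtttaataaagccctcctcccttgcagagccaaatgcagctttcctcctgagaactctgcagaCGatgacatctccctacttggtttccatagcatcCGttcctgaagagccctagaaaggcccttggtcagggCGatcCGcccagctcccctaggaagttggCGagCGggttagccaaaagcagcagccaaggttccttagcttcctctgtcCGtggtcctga
Slc17a7, chr7:45163671-45163970: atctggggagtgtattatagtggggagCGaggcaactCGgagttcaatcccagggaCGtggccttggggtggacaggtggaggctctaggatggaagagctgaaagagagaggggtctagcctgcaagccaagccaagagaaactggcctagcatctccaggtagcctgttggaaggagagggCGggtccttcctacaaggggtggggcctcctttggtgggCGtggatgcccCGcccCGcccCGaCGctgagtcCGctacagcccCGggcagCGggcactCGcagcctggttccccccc
Slc17a8, chr10:89621200-89621499: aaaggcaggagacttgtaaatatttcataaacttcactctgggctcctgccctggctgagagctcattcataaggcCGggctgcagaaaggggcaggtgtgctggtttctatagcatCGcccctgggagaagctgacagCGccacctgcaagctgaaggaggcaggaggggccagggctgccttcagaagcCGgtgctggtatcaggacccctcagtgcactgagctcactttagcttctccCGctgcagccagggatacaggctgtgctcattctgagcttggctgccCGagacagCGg
The window of Slc17a7, the lowest of the 33 genes, held 13 CG dinucleotides and 63.7% G and C. That of Slc17a6, the highest in deposited FPKM, held 8 CG dinucleotides and 53.7% G and C, and that of Slc17a8 held 7 and 58.0%. Start-site sequences were found for 21 of the 33 genes, in 29 windows, with a median of 15 CG dinucleotides, against 7 over the 32851 windows of all genes. TATAAA was present in 3.45% of the 29 windows against 13.6% of all windows, TGACG in 17.2% against 20.8% and CACGTG in 3.45% against 7.15%, each searched on both strands. These shares rest on few windows, since only a Homer2 window held TATAAA and only that of Grin1 held CACGTG. Some genes, such as Grm8 and Dlg4, entered with several windows. None of these 3 motifs lies in the windows printed above.

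**Figure D1:**
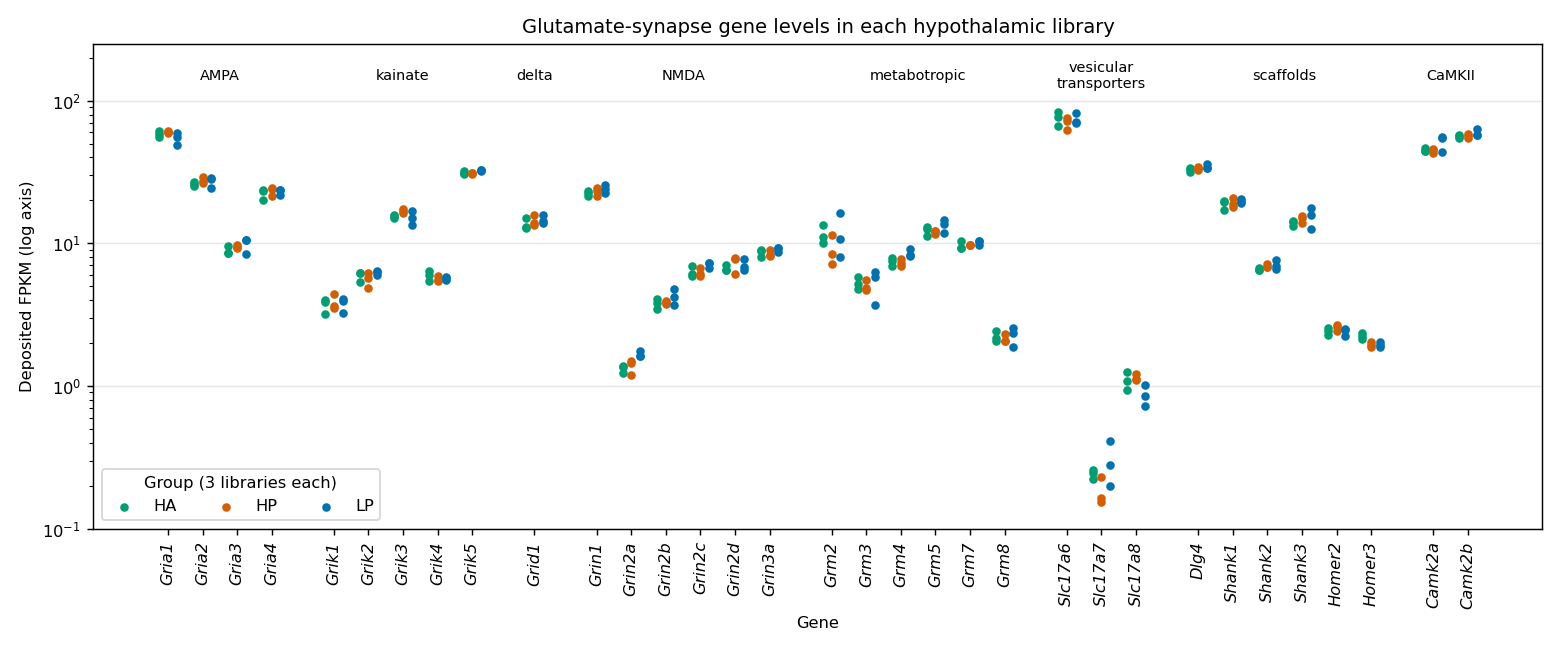
Deposited FPKM (log axis) of the 33 genes in each of the 9 libraries, grouped by role; each point is 1 library, with HA, HP and LP side by side for each gene. Slc17a6 lies highest with a mean of 73.5 FPKM and Slc17a7 lowest with 0.240 FPKM, and the libraries of a gene lie close together beside the distances between genes.

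Among the AMPA receptor subunits, which form the fast excitatory channels, Gria1 was highest in FPKM and Gria2 came next. The edited subunit of Gria2 makes the channel nearly impermeable to calcium. In CPM, which is not divided by length, Gria2 was above Gria1, at means of 421 and 351 over the 9 libraries. Gria1 had 55.5, 58.8 and 60.9 FPKM in HA, 60.6, 59.2 and 61.1 FPKM in HP and 59.9, 56.1 and 48.9 FPKM in LP. Gria2 had 26.1, 27.1 and 25.4 FPKM in HA, 27.4, 29.0 and 26.5 FPKM in HP and 28.2, 28.9 and 24.5 FPKM in LP. For both genes the groups overlapped, with the lowest value in LP replicate 3. As shares of the 4 genes' summed FPKM, Gria1 held 49.4% ± 1.77, Gria2 23.1% ± 0.883, Gria4 19.6% ± 1.12 and Gria3 8.003% ± 0.474 (SD over 9 libraries). Group by group, the Gria1 share was 49.97% ± 0.43 in HP and 47.7% ± 1.05 in LP, and the Gria3 share was 7.82% ± 0.15 in HP and 8.53% ± 0.349 in LP (SD, n = 3 each). Both pairs of HP and LP shares did not overlap, in opposite directions. In HA, the Gria3 share was 7.66% ± 0.327 and the Gria2 share 22.6% ± 0.487, both below every LP library, where Gria2 held 23.6% ± 0.592. Shares were not tested, since 3 libraries against 3 cannot give an exact two-sided permutation p below 0.1. Many shares were read over the families and 3 comparisons, so some pairs without overlap can arise by chance. Shares have no background over all genes. For levels, HP and LP did not overlap in 5.93% (higher) and 5.83% (lower) of all tested genes.

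Kainate receptors combine low-affinity subunits (Grik1 to Grik3) with high-affinity ones (Grik4 and Grik5). Grik5 had 30.4, 31.9 and 31.1 FPKM in HA, 31.1, 30.5 and 31.1 FPKM in HP and 32.7, 32.7 and 32.1 FPKM in LP. Its HA and HP values lay just below all 3 LP values, and it was the steadiest of the family. Grik3, the next in level, had 15.9, 15.1 and 15.6 FPKM in HA, 17.3, 16.3 and 16.7 FPKM in HP and 16.9, 15.2 and 13.5 FPKM in LP, where HA and HP did not overlap. Grik5 made up 50.2% ± 1.36 of the 5 kainate genes' summed FPKM, Grik3 25.2% ± 1.64, Grik2 9.42% ± 0.804, Grik4 9.19% ± 0.532 and Grik1 6.01% ± 0.533. The Grik3 share was 26.7% ± 0.426 in HP, above every HA library (24.9% ± 1.06) and every LP library (23.9% ± 1.84) (SD, n = 3 each). Grid1, an orphan delta receptor that binds cerebellins rather than glutamate at synapses, had 15.2, 12.9 and 13.0 FPKM in HA, 13.9, 13.5 and 15.7 FPKM in HP and 15.7, 14.4 and 13.8 FPKM in LP. These groups overlapped in every pair.

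NMDA receptors need the obligatory subunit of Grin1 together with Grin2 or Grin3 subunits, and Grin2a is known to become more abundant in forebrain as synapses mature. Grin1 had 23.4, 22.7 and 21.6 FPKM in HA, 23.4, 21.4 and 24.5 FPKM in HP and 25.6, 22.6 and 24.0 FPKM in LP. Grin3a, second in level and the gene of a subunit that lowers calcium entry, had 8.83, 8.99 and 8.02 FPKM in HA, 8.95, 8.13 and 8.26 FPKM in HP and 9.34, 9.21 and 8.67 FPKM in LP. Neither gene separated the groups. Grin2a had 1.23, 1.38 and 1.36 FPKM in HA, 1.48, 1.44 and 1.18 FPKM in HP and 1.75, 1.62 and 1.62 FPKM in LP. All 3 LP values were above all 6 others, and Grin2a was the third lowest of the 33 genes in FPKM. At day 21 the Grin2 family was led, per length, by Grin2d with 36.9% ± 2.73 and Grin2c with 34.6% ± 1.72 of the summed FPKM. Grin2b followed with 20.9% ± 1.67 and Grin2a with 7.67% ± 0.825. This order rests on the lengths used. In counts not divided by length, Grin2b was highest with a mean of 1928, against 909 for Grin2d, 646 for Grin2c and 511 for Grin2a. The deposited length was 24842 bases for Grin2b, 6658 for Grin2d and 5037 for Grin2c. Taken alone against Grin2b, Grin2a made up 26.04% ± 2.07 in HA, 26.2% ± 1.98 in HP and 28.4% ± 1.88 in LP (SD, n = 3 each), with overlapping groups.

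The 6 metabotropic receptor genes cover the 3 known groups, with Grm5 in group I, Grm2 and Grm3 in group II, and Grm4, Grm7 and Grm8 in group III. Grm5 had 13.0, 12.7 and 11.3 FPKM in HA, 12.2, 11.6 and 12.3 FPKM in HP and 14.7, 13.7 and 11.8 FPKM in LP. Grm2, a presynaptic inhibitory receptor, had 10.1, 13.4 and 11.1 FPKM in HA, 8.40, 11.4 and 7.12 FPKM in HP and 10.7, 8.08 and 16.4 FPKM in LP. Grm2 was the most variable gene of the 33 apart from Slc17a7, with its lowest value in HP replicate 3 and its highest in LP replicate 3. Those libraries also had the lowest and the highest summed level of 10 thalamic markers, 165.6 CPM in HP replicate 3 and 199.9 CPM in LP replicate 3. The part of these markers in the spread of Grm2 was not tested. Of the family's summed FPKM, Grm5 held 26.1% ± 2.29, Grm2 21.99% ± 4.55, Grm7 20.5% ± 1.07, Grm4 16.1% ± 0.714, Grm3 10.8% ± 1.83 and Grm8 4.57% ± 0.455 (SD over 9 libraries). The Grm4 share was 15.4% ± 0.254 in HA and 16.6% ± 0.696 in LP, and the Grm7 share was 21.6% ± 1.03 in HP and 19.9% ± 0.549 in LP (SD, n = 3 each), without overlap in either pair.

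**Figure D2:**
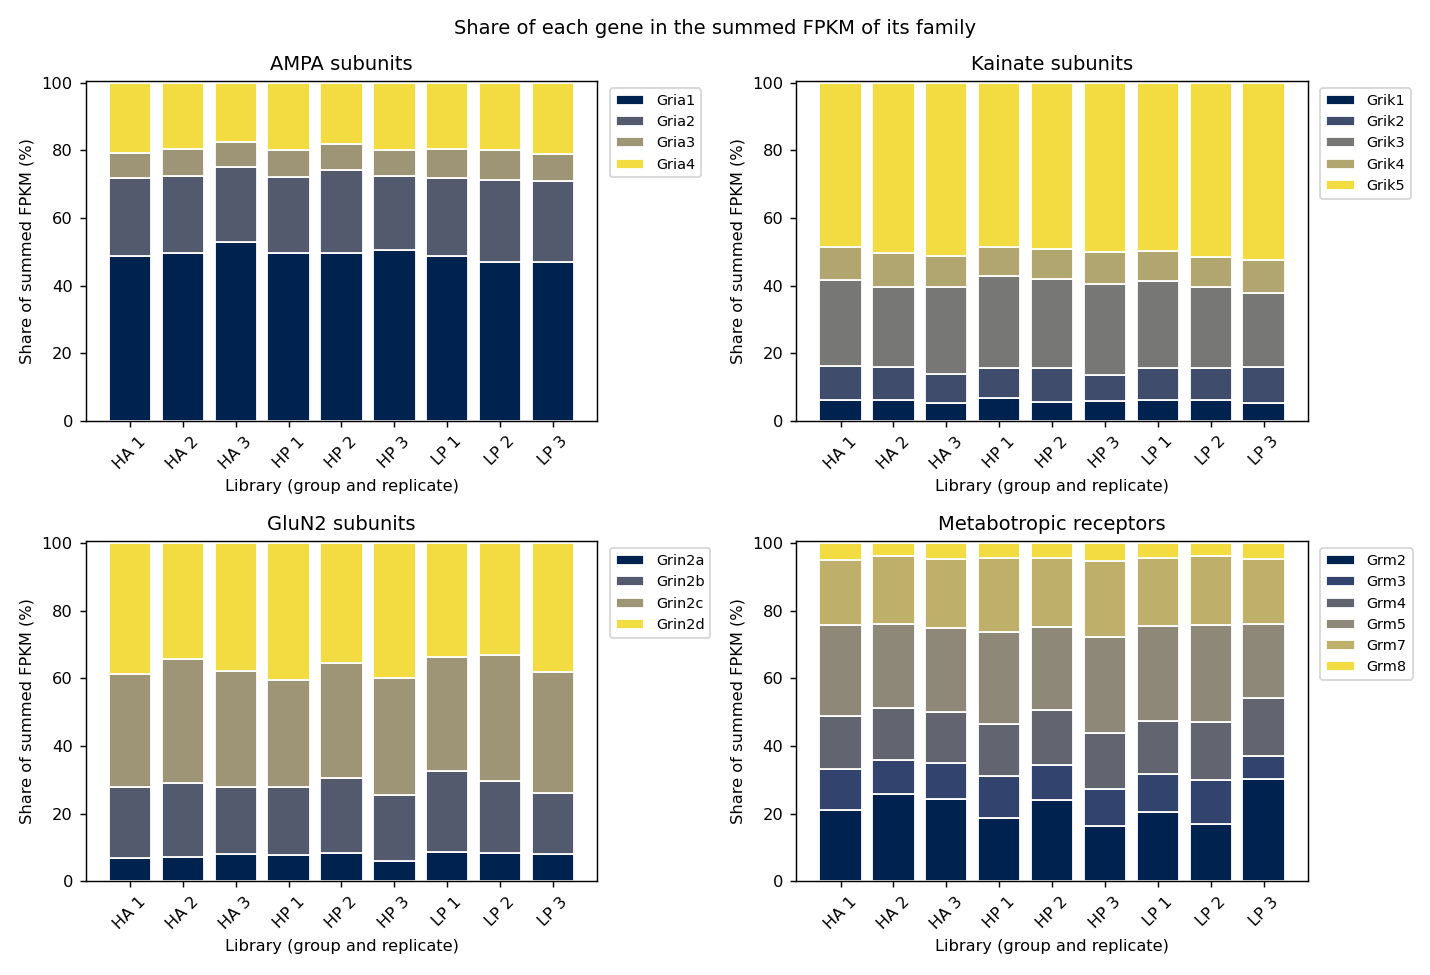
Percentage of the summed FPKM of each receptor family contributed by each gene, with 1 stacked bar per library in the order HA, HP, LP. Gria1 (49.4%) and Grik5 (50.2%) fill about the same part of every bar of their families, while Grm2 ranges from 16.4% in HP replicate 3 to 30.3% in LP replicate 3.

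Dlg4, which encodes PSD-95, was the most abundant scaffold gene, with 32.98, 33.997 and 31.5 FPKM in HA, 34.1, 32.6 and 33.8 FPKM in HP and 36.3, 33.5 and 33.6 FPKM in LP. Shank1 followed with 19.5, 19.8 and 17.2 FPKM in HA, 20.6, 17.9 and 18.8 FPKM in HP and 19.9, 20.6 and 19.3 FPKM in LP. Both genes overlapped between all groups. Shank3 averaged 14.7 ± 1.55 FPKM, Shank2 6.85 ± 0.370 FPKM, Homer2 2.47 ± 0.147 FPKM and Homer3 2.05 ± 0.170 FPKM (SD over 9 libraries). Camk2b had 57.3, 56.8 and 54.6 FPKM in HA, 56.3, 54.8 and 58.8 FPKM in HP and 63.7, 57.6 and 57.3 FPKM in LP. Camk2a had 44.4, 46.9 and 44.5 FPKM in HA, 45.0, 45.9 and 42.9 FPKM in HP and 54.5, 55.5 and 44.1 FPKM in LP. Within LP, Camk2a was high in replicates 1 and 2 and lay among the HA and HP values in replicate 3. Camk2a contributed 45.0% ± 1.96 of the summed FPKM of the 2 kinase genes, so the beta gene was the higher one.

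In the order of mean FPKM, Slc17a6 was followed by Gria1 (57.9), Camk2b (57.5), Camk2a (47.1), Dlg4 (33.6), Grik5 (31.5), Gria2 (27.0), Grin1 (23.2), Gria4 (22.9) and Shank1 (19.3). The ranges over the 9 libraries were separate from those of the next gene only below Slc17a6, Camk2a, Grik5, Grik1, Homer3 and Slc17a8, and the ranges of other neighbours overlapped. Within a library, the ratio of Camk2a to Camk2b was 0.729 to 0.964. Levels of different genes depend on the length they are divided by, since the deposited gene length was up to 7.72 times that of the annotated principal transcript. With principal transcript lengths, Camk2b (131), Dlg4 (128) and Slc17a6 (96.3) came first, and Homer2 moved up to rank 11, against rank 28 with deposited lengths.

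Between HP and LP, no gene of the 33 passed an adjusted p of 0.05. The smallest edgeR adjusted p among them was 0.758, in a comparison where 0.0114% of all tested genes were called. DESeq2 also called none of the 33 in this comparison (background 0.241%), in HA over HP (30 of the 33 with an adjusted p; background 0.103%) or in HA over LP (background 0.16%). Estimates were lower in HP for 24 of 33 genes, against 50.9% of all tested genes, and the median log2 fold change of the 33 was -0.06, with a median standard error of 0.08 per gene, against -0.002 over all genes. Below an unadjusted edgeR p of 0.05 were 6 of the 33 (background 6.12%), 1 higher in HP (background 3.12%) and 5 lower (background 3%). These were Slc17a8 on the higher side and Grin2a, Grm4, Camk2a, Grin2c and Slc17a7 on the lower side. Libraries did not overlap for 1 gene that was higher in HP (Slc17a8; background 5.93%) and 4 that were lower (Grik5, Grin2a, Grm4 and Grm7; background 5.83%). By role, estimates were lower in HP for 6 of 6 metabotropic receptors, 5 of 6 NMDA subunits, 4 of 6 scaffolds, 3 of 5 kainate subunits and 1 of 4 AMPA subunits. With LP replicates 1 and 2 both left out, the libraries with the highest striatal markers, 17 of 33 estimates were lower and the median was -0.005. With LP replicate 1 alone left out, 22 of 33 were lower and the median was -0.02. Grik5, without overlap, had a log2 fold change of -0.07 ± 0.03 (SE; edgeR adjusted p = 0.823), and Grm7 one of -0.07 ± 0.06 (SE; edgeR adjusted p = 0.890).

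The 4 genes with the smallest p in this comparison were Grin2a, Grm4, Camk2a and Slc17a8, given here in CPM scaled by TMM factors. Grin2a had 26.7, 25.9 and 21.3 CPM in HP and 31.5, 29.2 and 29.0 CPM in LP, so all HP libraries were lower. Its log2 fold change was -0.28 ± 0.09 (SE; edgeR adjusted p = 0.758), -0.24 (edgeR adjusted p = 0.659) without LP replicates 1 and 2, and -0.18 (edgeR adjusted p = 0.920) without HP replicate 3. Grm4, a presynaptic group III receptor, had 41.4, 46.7 and 43.6 CPM in HP and 49.3, 48.8 and 54.9 CPM in LP, again without overlap. Its log2 fold change was -0.22 ± 0.07 (SE; edgeR adjusted p = 0.767). Slc17a8 averaged 5.41 ± 0.258 CPM in HP and 4.08 ± 0.718 CPM in LP (SD, n = 3 each), which gave a log2 fold change of 0.41 ± 0.17 (SE; edgeR adjusted p = 0.810). Without LP replicates 1 and 2 that estimate was 0.16 (edgeR adjusted p = 0.862).

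Camk2a had 337, 343 and 321 CPM in HP and 408, 417 and 329 CPM in LP, where LP replicate 3 lay inside the HP range. The log2 fold change was -0.20 ± 0.08 (SE; edgeR adjusted p = 0.807). It depended on which LP libraries were used. Without LP replicate 3 and HA replicate 3, which had the highest meningeal markers, it was -0.30 with an edgeR adjusted p of 0.0350, the only call among the 33 genes in any fit. Without LP replicates 1 and 2 it was 0.02 (edgeR adjusted p = 0.955), a fit in which the lone LP library is assumed to vary like the other groups. The 2 LP libraries with high Camk2a were those with 731 and 887 CPM of summed striatal markers, against 566 CPM in LP replicate 3 and 541.8 to 545.6 CPM in HP. The summed level of 18 cortical and hippocampal markers was also highest there, at 352 and 370.6 CPM, against 325.2 CPM in LP replicate 3 and 308.2 to 319.6 CPM in HP. The part of either marker list in the Camk2a difference was not tested.

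**Figure D3:**
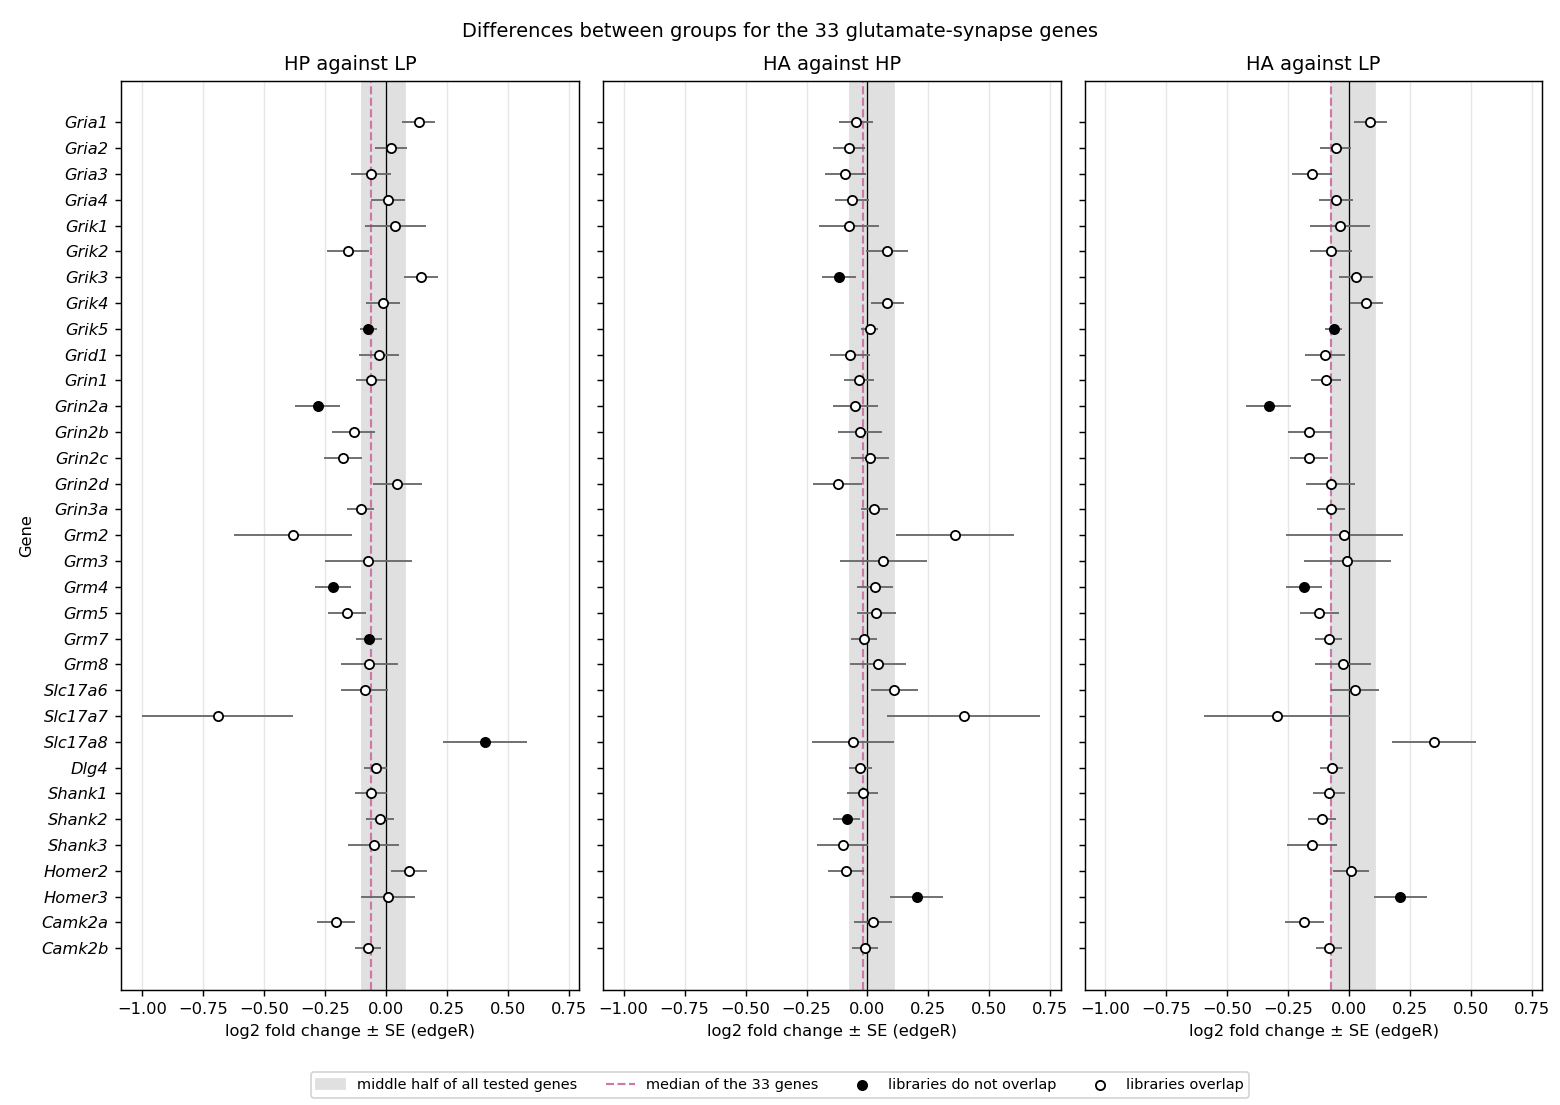
Log2 fold change ± SE (edgeR) of each of the 33 genes for HP over LP, HA over HP and HA over LP; filled points mark genes whose libraries do not overlap, the grey band holds the middle 50% of all tested genes and the dashed line is the median of the 33. Most points lie within 0.25 of 0, the medians are -0.06, -0.02 and -0.08, and Slc17a7 and Grm2 have the widest errors.

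Between HA and HP the 33 genes were closer together. None passed an adjusted p of 0.05 (smallest edgeR adjusted p 0.840; background 0.0114%), and none had an unadjusted edgeR p under 0.05 (background 5.42%, of which 3% higher and 2.42% lower). Estimates were lower in HA for 19 of 33 genes, against 49.1% of all tested genes, and the median log2 fold change was -0.02, against 0.003 over all genes. Without HA replicate 3 the median was 0.01, and 12 of 33 were lower. In a fit of the 6 HP and HA libraries with the title code as a term, 19 of 33 were lower and the median was -0.02. In that fit 2 of 33 had an unadjusted edgeR p under 0.05 (background 6.51%), 1 of them lower (background 2.93%). Libraries did not overlap for Homer3, which was higher in HA (1 of 33; background 5.92%), and for Grik3 and Shank2, which were lower (2 of 33; background 5.89%).

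Homer3, a scaffold that links group I metabotropic receptors to internal calcium stores, had 7.41, 7.75 and 8.15 CPM in HA and 6.73, 7.05 and 6.48 CPM in HP. All HA libraries were higher, with a log2 fold change of 0.20 ± 0.11 (SE; edgeR adjusted p = 0.840). The value is uncertain, since Homer3 shares 25.4% of its exon bases with Ddx49 on the other strand, the libraries are not stated to be stranded, and Ddx49 had a mean of 339 counts beside 138 for Homer3. Grik3 had 142.7, 135.3 and 140.5 CPM in HA and 156.1, 146.8 and 150.8 CPM in HP, which gave a log2 fold change of -0.12 ± 0.07 (SE; edgeR adjusted p = 0.840). Shank2, a scaffold that bridges receptor complexes and the actin cytoskeleton, had 69.7, 70.0 and 72.5 CPM in HA and 77.5, 74.0 and 73.7 CPM in HP, which gave a log2 fold change of -0.09 ± 0.06 (SE; edgeR adjusted p = 0.840). The nearest HA and HP libraries of Shank2, at 72.5 and 73.7 CPM, lay close together. Grm2 averaged 56.6 ± 8.06 CPM in HA and 44.0 ± 10.7 CPM in HP (SD, n = 3 each), which gave a log2 fold change of 0.36 ± 0.24 (SE; edgeR adjusted p = 0.840) with overlapping libraries. The Grm2 estimate was 0.57 without HP replicate 2 (edgeR adjusted p = 0.844) and 0.215 without HP replicate 3 (edgeR adjusted p = 0.955). For the 3 genes with the smallest p on the lower side of HP against LP, whose HP libraries this comparison shares, the values in HA against HP were Grin2a at -0.05 ± 0.09, Grm4 at 0.03 ± 0.07 and Camk2a at 0.02 ± 0.08 on the log2 scale (log2 fold change ± SE).

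Between HA and LP, which shares its LP libraries with the first comparison and its HA libraries with the second, none of the 33 passed an adjusted p of 0.05 (smallest edgeR adjusted p 0.645; background 0%). Estimates were lower in HA for 26 of 33 genes, against 48.1% of all tested genes, with a median log2 fold change of -0.08 against 0.006 over all genes. An unadjusted edgeR p under 0.05 was found for 3 of 33 (background 6.51%), all lower in HA (background 3.45%) and 0 higher (background 3.06%): Grin2a, Grm4 and Camk2a. Without LP replicates 1 and 2, 18 of 33 estimates were lower and the median was -0.02. Without HA replicate 3, the library with the most meningeal and the least pan-neuronal marker signal, 22 of 33 were lower and the median was -0.04. Libraries did not overlap for 1 gene that was higher in HA (Homer3; background 5.4%) and 3 that were lower (Grik5, Grin2a and Grm4; background 5.51%). All 6 NMDA subunits and all 6 metabotropic receptors had lower estimates, with medians of -0.13 and -0.05.

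Grin2a had 22.2, 24.7 and 24.6 CPM in HA and 31.5, 29.2 and 29.0 CPM in LP, so all HA libraries were lower. The log2 fold change was -0.33 ± 0.09 (SE; edgeR adjusted p = 0.645), and over all alternative fits it stayed between -0.37 and -0.28, with edgeR, DESeq2 or limma-voom adjusted p values of 0.339 to 0.902. Grm4 averaged 44.8 ± 3.01 CPM in HA and 51.0 ± 3.37 CPM in LP (SD, n = 3 each), which gave a log2 fold change of -0.19 ± 0.07 (SE; edgeR adjusted p = 0.756). It was -0.08 (edgeR adjusted p = 0.900) without LP replicate 3 and HA replicate 3, and -0.30 (edgeR adjusted p = 0.893) without LP replicates 1 and 2. Camk2a averaged 339 ± 10.1 CPM in HA and 384.8 ± 48.1 CPM in LP (SD, n = 3 each), with the same split among LP libraries as above. Its log2 fold change was -0.18 ± 0.08 (SE; edgeR adjusted p = 0.757), -0.28 (edgeR adjusted p = 0.117) without LP replicate 3, and 0.04 (edgeR adjusted p = 0.974) without LP replicates 1 and 2. Grin2c, which is known from cerebellar granule cells and astrocytes, had 30.7, 35.0 and 29.8 CPM in HA and 33.9, 36.6 and 36.6 CPM in LP, which gave a log2 fold change of -0.17 ± 0.08 (SE; edgeR adjusted p = 0.780) with overlap, and of -0.10 (edgeR adjusted p = 0.887) without LP replicate 3 and HA replicate 3. Grik5 had a log2 fold change of -0.06 ± 0.03 (SE; edgeR adjusted p = 0.813). Homer3 differed by 0.21 ± 0.11 on the log2 scale (SE; edgeR adjusted p = 0.803), with the overlap with Ddx49 named above.

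**Figure D4:**
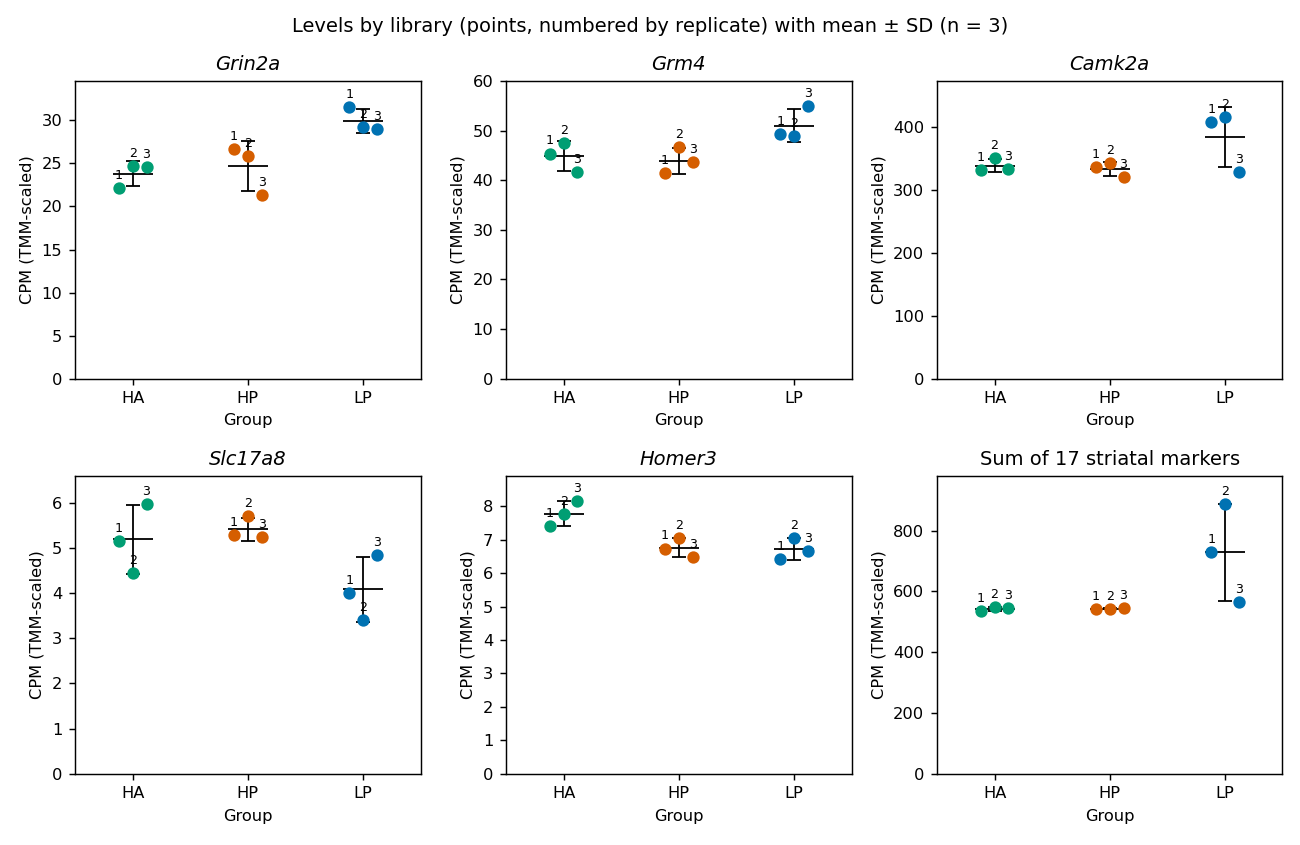
CPM (TMM-scaled, axes from 0) of Grin2a, Grm4, Camk2a, Slc17a8 and Homer3 and the summed CPM of 17 striatal markers, for HA, HP and LP; points are libraries numbered by replicate, and bars are the mean ± SD (n = 3). Camk2a is high in LP replicates 1 and 2 (408 and 417 CPM), which also have the highest striatal sums (731 and 887 CPM), while Grin2a is high in all 3 LP libraries.

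Library by library, the highest value of a gene was in LP replicate 1 for 8 of the 33 genes and in LP replicate 2 for 9. The lowest was in HA replicate 3 for 9 and in LP replicate 3 for 7. HA replicate 3 had the lowest summed level of 10 pan-neuronal markers, 5223 CPM, while the others ranged over 5479 to 5999 CPM, together with the most meningeal signal. In LP replicate 3, the other library with high meningeal markers, Gria1, Grik3 and Grm3 were at their lowest while Grm2, Grm4 and Grin2c were high. Grm3 had 11.3 CPM there and 14.4 to 19.3 CPM elsewhere. The part of meningeal or neuronal content in these values was not tested.

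**Figure D5:**
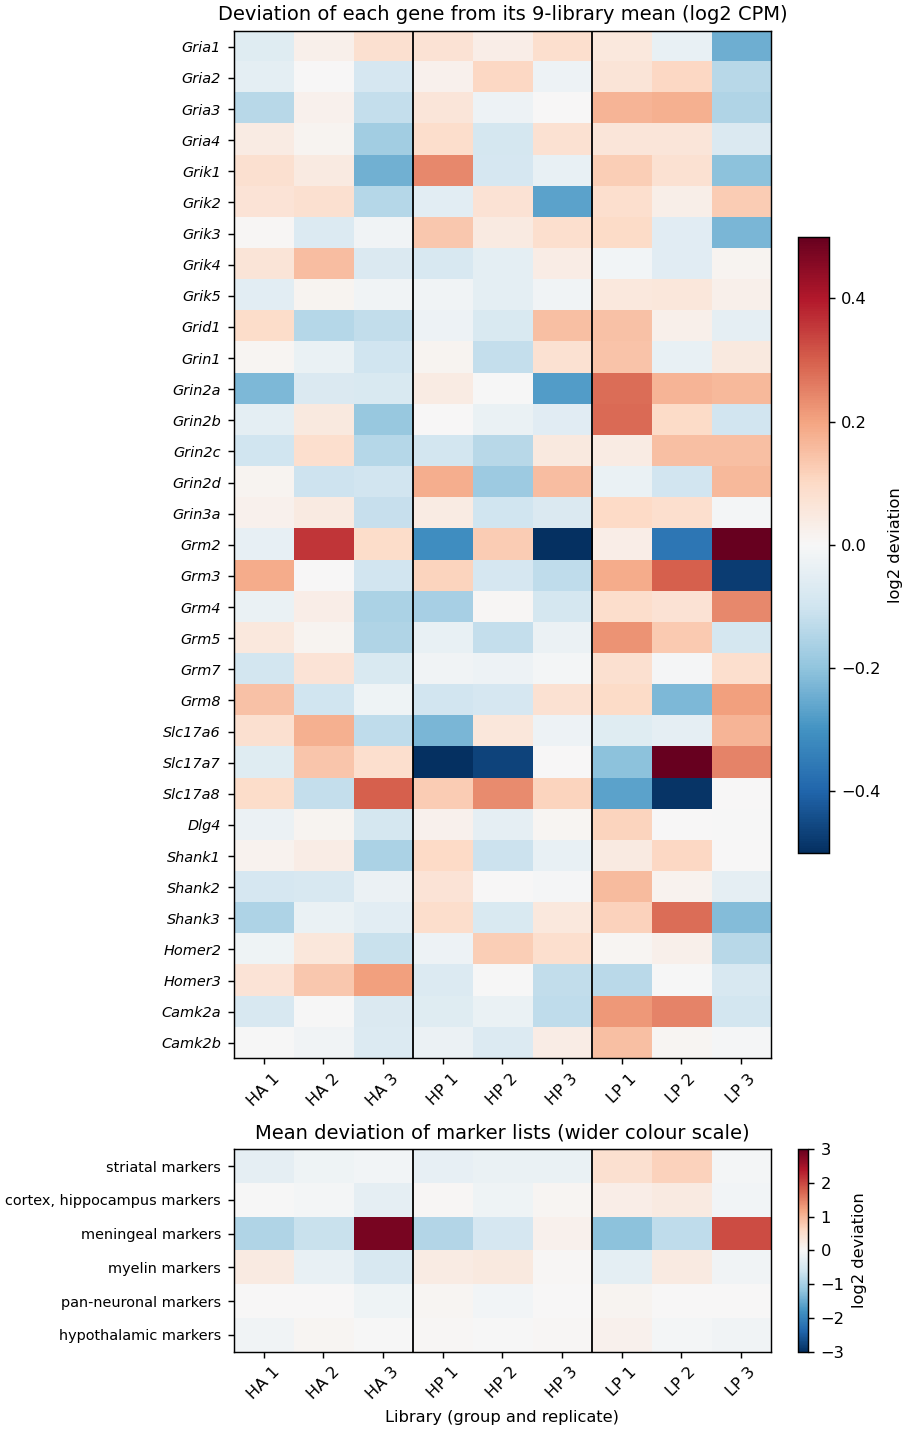
Upper panel: deviation of each gene's log2 CPM from its mean over the 9 libraries (red higher, blue lower, colours end at 0.5 in either direction); lower panel: mean deviation of marker lists on a wider scale that ends at 3. LP replicates 1 and 2 are mostly red and HA replicate 3 mostly blue; the meningeal row stands out in HA replicate 3 (1273 CPM) and LP replicate 3 (622 CPM).

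A list of 52 other glutamate-synapse genes, of which 51 could be tested, was read beside the 33. None passed an adjusted p of 0.05 in any of the 3 comparisons by edgeR. In HP against LP, 5 of 51 had an unadjusted edgeR p under 0.05, 1 higher and 4 lower (background 6.12%, of which 3.12% higher and 3% lower), and the median log2 fold change was -0.06. In HA against HP, 2 of 51 did, 1 in each direction (background 5.42%), with a median of -0.02. In HA against LP, 12 of 51 did, 1 higher and 11 lower (background 6.51%, of which 3.06% higher and 3.45% lower), with a median of -0.07. Cacng3, an auxiliary AMPA receptor subunit, had 18.5, 18.9 and 16.8 CPM in HA, 20.5, 16.6 and 20.03 CPM in HP and 27.5, 25.7 and 20.5 CPM in LP. Its log2 fold change was -0.37 ± 0.12 in HP against LP (SE; edgeR adjusted p = 0.758) and -0.44 ± 0.12 in HA against LP (edgeR adjusted p = 0.645), and it was highest in LP replicates 1 and 2. Without those libraries it was -0.11 in HP against LP (edgeR adjusted p = 0.861) and -0.19 in HA against LP (edgeR adjusted p = 0.916). Baiap2, a scaffold that binds Shank proteins, had 65.5, 70.4 and 81.2 CPM in HA and 88.6, 90.9 and 87.5 CPM in LP, which gave a log2 fold change of -0.30 ± 0.07 (SE; edgeR adjusted p = 0.645). Without LP replicate 3 and HA replicate 3 it was -0.40 with an edgeR adjusted p of 0.0369, the only fit that called Baiap2. That was the largest difference of all alternative fits, which ran from -0.40 to -0.24. Nptx2, a secreted pentraxin that clusters AMPA receptors, had 53.4, 62.9 and 52.3 CPM in HA and 39.4, 45.3 and 47.1 CPM in HP, which gave a log2 fold change of 0.35 ± 0.11 (SE; edgeR adjusted p = 0.840). The remaining named genes were smaller in difference, with Nptx1 at 0.14 ± 0.05 and Nlgn3 at -0.21 ± 0.08 in HP against LP, Slc1a1 at -0.17 ± 0.07 and Slc38a1 at -0.11 ± 0.05 in HA against HP, and Dlgap4 at -0.11 ± 0.04 in HA against LP (log2 fold change ± SE). Nlgn3 was at -0.12 without LP replicate 1, and Slc1a1 at -0.09 without HA replicate 3.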

How the data were processed

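Each library's gene counts were deposited as 1 table. Per the submitters' processing notes, the tools were featureCounts 1.5.0-p3, HISAT2 2.0.5 and DESeq2 1.16.1, and the build is given as mm9, but 98.3% of the gene IDs shared with GENCODE mouse release M21, which is on GRCm38, have the same start and end. The authors also deposited FPKM values, which agree within 0.981 to 1.011 of values recomputed from counts, library totals and the deposited gene lengths. FPKM were used for levels and shares, described per library with no test. Counts were tested with edgeR 4.0.16 (R 4.3.3): genes filtered by filterByExpr, TMM factors, 1 quasi-likelihood fit over all 9 libraries by group, two-sided, Benjamini-Hochberg over 17546 genes, threshold 0.05. CPM are counts scaled by library totals and TMM factors. The biological coefficient of variation was 14.1%. Shares, overlaps and list medians are descriptions without a test. Alternatives were DESeq2 1.42.0, limma-voom (limma 3.58.1), other scaling, other filters, a replicate block and left-out libraries. For HA against HP, the HP and HA libraries were also fitted alone, with and without the title code as a term. The scripts were tested on simulated data. No 2 libraries agreed within counting error (chi-square per degree of freedom 4.73 to 25.8 within groups). Replicate numbers come from the titles. Deviations of same-numbered HA and LP libraries correlated at 0.144 to 0.486, all over 0.1, while pairs that include HP did not all pass that level; the labels state no pairing. The members and gene lists were chosen with earlier results of these data known. All 33 genes are named; values per library are given for the 2 most abundant genes of each role and a few others, and tests for the 4 smallest p per comparison (3 in the list of 52), plus those of the 33 whose libraries do not overlap. Precision is limited by 3 libraries per group and, for Slc17a7, by counts.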

Additional observations from a re-analysis of the deposited data

How the results depend on the processing

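None of the 33 genes was called by DESeq2, limma-voom, other scalings, other filters, the replicate block or any fit that left out 1 library. The exception among all fits was Camk2a in HP against LP without LP replicate 3 and HA replicate 3 together (1 of 33 called, -0.30, adjusted p 0.0350). Camk2a reversed without LP replicates 1 and 2 together, to 0.0178 in HP against LP and 0.0359 in HA against LP. The median of the 33 in HP against LP moved to -0.0225 without LP replicate 1 (range -0.0679 to -0.0225 over fits that left out 1 library) and to -0.0054 without LP replicates 1 and 2 together, and in HA against LP to -0.0159 without both; the cause was not tested. In HA against HP it ran from -0.03 to 0.01, the highest without HA replicate 3. Counts over all genes moved most. HP against LP gave 2 calls, against 38 by DESeq2, 1 with library totals, 53 with no filter, 4 with the replicate block, 37 without LP replicate 3 and HA replicate 3 together and 1 to 21 when 1 library was left out, with 21 without LP replicate 3. HA against HP gave 2 calls, against 10 by DESeq2, 5 with no filter, 10 without LP replicate 3 and HA replicate 3 together and 1 to 9 when 1 library was left out, with 9 without HA replicate 3. HA against LP gave 0 calls, against 28 by DESeq2, 41 with no filter, 23 without LP replicate 3 and HA replicate 3 together and 0 to 14 when 1 library was left out, with 14 without LP replicate 3. Over all groups, deviations of same-numbered libraries correlated at -0.0276 to 0.486 (median 0.1375) and those of other numbers at -0.367 to 0.251 (median -0.0598). The replicate block called 0 of the 33 in each comparison and, in HA against LP, 0 of all genes, with a median of -0.0756 for the 33; it changed no call among the named genes. Another alternative, chosen after seeing the data, divided counts by principal transcript length. Shares then became 43.1% for Gria1, 27.0% for Gria2, 11.9% for Gria3 and 18.01% for Gria4; 8.65% for Grik1, 10.4% for Grik2, 19.7% for Grik3, 7.28% for Grik4 and 54.0% for Grik5; 31.8% for Grin2c, 40.5% for Grin2d and 30.4% for Grin2a against Grin2b alone; 8.43% for Grm3, 22.4% for Grm7 and 9.15% for Grm8; 0.456% for Slc17a7; 35.1% for Camk2a; and 43.3% for Shank1 and 39.5% for Shank3. The order within families was kept except that Grik1 came above Grik4, Grm7 above Grm2 (17.8%) and Grm8 above Grm3. For Grin2b the principal length, 24060 bases, is close to the deposited 24842. This alternative therefore cannot check the place of Grin2b in its family. A difference that was not called is not shown to be absent.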

Other observations

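Among glutamate genes outside the 33, 3 that act in astrocytes had high FPKM. Glul, the glutamine synthetase of astrocytes, averaged 280.2 ± 18.3 FPKM in HA, 290.4 ± 14.4 FPKM in HP and 311.6 ± 28.2 FPKM in LP (SD, n = 3 each). The astrocytic transporters Slc1a2 (GLT-1) and Slc1a3 (GLAST) averaged 107 ± 6.67 and 86.1 ± 3.91 FPKM over the 9 libraries. Of the auxiliary AMPA subunits, Cnih2 reached 151.7 ± 7.56 FPKM and Cacng7 63.6 ± 4.12 FPKM, whereas Cacng3 had 7.38 ± 1.34 FPKM. Camk2g, the gamma gene of CaMKII, had 40.7 ± 1.28 FPKM.

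Arc, an activity-induced gene, was the one of the 12 genes with an unadjusted edgeR p under 0.05 in HA against LP that was higher, with 22.9, 26.4 and 24.0 CPM in HA and 19.8, 22.7 and 17.96 CPM in LP. All HA libraries were above all LP libraries. The log2 fold change was 0.27 ± 0.10 (SE; edgeR adjusted p = 0.756), and Arc was chosen after its values were seen.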
